A study of Mus musculus with 8 samples.

Results

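The cytosolic ribosomal protein genes encode the proteins of the ribosome that translates mRNA in the cytoplasm. They were taken as every protein-coding gene of the mouse RefSeq annotation whose symbol is Rpl (large subunit) or Rps (small subunit) followed by a number with an optional letter. Rplp0, Rplp1, Rplp2 and Rpsa were added, and ribosomal S6 kinase genes and pseudogenes were left out. This gave 81 of the 21000 protein-coding genes with a curated transcript, 50 for the large and 31 for the small subunit.

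A ribosome holds a single copy of nearly every ribosomal protein, so a growing cell makes them in matched amounts, from genes scattered over the chromosomes. In mammals the active genes are short, lie in CpG-rich DNA and are highly transcribed, and many carry small nucleolar RNAs (snoRNAs), which guide rRNA modification, in their introns. Their transcripts commonly start at a C inside a run of pyrimidines. This terminal oligopyrimidine (TOP) element at the 5′ end of the mRNA lets mTOR signalling control the translation of the family as a group.

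MOF ChIPseq and Cut&Run for Rfx2, H3K4me3 and H3K27ac were examined at these genes. The cells were the whole epidermis of newborn wild-type mice (postnatal day 0.5). MOF is the acetyltransferase that deposits H4K16ac, Rfx2 is a transcription factor of ciliary genes, H3K4me3 is the mark of active promoters, and H3K27ac is found at active promoters as well as enhancers. In ChIPseq, fixed and sheared chromatin is pulled down with an antibody, whereas in Cut&Run a nuclease tethered to the antibody cuts out the bound fragments from unsheared chromatin. Each antibody was represented by 1 peak list from 1 library, so no value has a replicate error, no test between samples was possible, and confidence intervals cover counting error over genes only. The lists held 17546 MOF, 337 Rfx2, 27039 H3K4me3 and 30736 H3K27ac peaks. The MOF list is longer than the study's own count of MOF peaks, so every MOF share here rests on a list that may be less strict than the final call. The lists give no read numbers. Read totals stated in the study's methods were not used here. In bulk tissue a stronger signal per cell and a larger number of cells with the signal cannot be told apart. Of 8 keratinocyte markers, 5 had H3K4me3 at the promoter (Krt5, Krt14, Trp63, Perp and Sfn) and Krt1, Krt10 and Itga6 did not. This share, 62.5%, was close to the 60.6% of all protein-coding genes, so the count alone does not identify the cells. H3K27ac was at 4 of the 8, against 50% of all protein-coding genes. H3K4me3 was also found at 2 of 7 markers of other skin cells, Pdgfra and Pmel, and at 0 of 4 markers of other organs.

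The start of the transcripts is shown first for 5 genes with a pyrimidine run at the transcription start site (TSS) and a MOF peak at the promoter. Sequences are from a RefSeq promoter set (GRCm38.p6, the assembly also called mm10) that has an entry for 61 of the 81 genes. Each holds 15 bases before the TSS, the TSS and 14 bases after it, 5′ to 3′ on the strand of the gene. Capitals mark the uninterrupted run of C and T that includes the TSS, as far as it lies in these 30 bases (the run of Rpl27a, 20 bases long, goes on beyond them).
Rpl7a (plus strand, chr2:26910792-26910821): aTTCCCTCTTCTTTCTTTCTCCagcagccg
Rpl27a (plus strand, chr7:109519180-109519209): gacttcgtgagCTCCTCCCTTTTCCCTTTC
Rpl15 (minus strand, chr14:18270972-18271001): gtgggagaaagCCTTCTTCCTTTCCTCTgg
Rps6 (minus strand, chr4:86857353-86857382): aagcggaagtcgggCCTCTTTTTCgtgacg
Rps27 (minus strand, chr3:90213634-90213663): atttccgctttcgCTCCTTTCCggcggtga

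The next 3 genes had a run of the same kind, H3K4me3 and H3K27ac, but no MOF peak.
Rpl35 (minus strand, chr2:39005117-39005146): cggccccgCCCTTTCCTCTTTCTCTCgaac
Rpl14 (plus strand, chr9:120571502-120571531): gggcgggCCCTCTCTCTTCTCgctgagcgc
Rps18 (minus strand, chr17:33955651-33955680): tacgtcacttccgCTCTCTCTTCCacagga

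The last set shows Rpl24 and genes with their paralogs. Rpl24 had the next to highest MOF score of the family and a purine at its TSS. Rpl10 and Rpl39 stand beside their paralogs Rpl10l and Rpl39l, and Rpl3l and Rpl32l are further copies. Rpl39 had a run, both marks and no MOF, like the 3 genes before. The paralogs Rpl10l, Rpl39l, Rpl3l and Rpl32l had no peak of any kind.
Rpl24 (plus strand, chr16:55966260-55966289): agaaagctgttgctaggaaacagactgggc
Rpl10 (plus strand, chrX:74270801-74270830): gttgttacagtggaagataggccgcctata
Rpl10l (minus strand, chr12:66284387-66284416): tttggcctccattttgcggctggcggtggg
Rpl39 (minus strand, chrX:37085208-37085237): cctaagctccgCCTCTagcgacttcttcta
Rpl39l (plus strand, chr16:10170213-10170242): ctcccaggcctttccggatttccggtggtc
Rpl3l (plus strand, chr17:24727811-24727840): gagtgttctagctctgtcatttgacctctg
Rpl32l (plus strand, chr10:20208424-20208453): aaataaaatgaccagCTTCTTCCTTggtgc

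Nearly all ribosomal protein genes carried both active marks. H3K4me3 overlapped the promoter, defined as the 1 kb before a TSS and the 100 bp after it, at 77 of the 81 genes (95.1%, exact 95% confidence interval 87.8 to 98.6%), against 60.6% of all protein-coding genes. H3K27ac was present at 75 (92.6%, 84.6 to 97.2%), against 50% of all genes. Of the 77 genes with H3K4me3, 75 had H3K27ac (97.4%, 90.9 to 99.7%), against 81% of all genes with H3K4me3. Each of the 77 had exactly 1 H3K4me3 peak at its promoter. When a gene was counted only if the centre of a peak lay in the promoter, the shares were 16% for H3K4me3 and 37% for H3K27ac, against 27.3% and 28.9% of all genes. The promoter window ends 100 bp after the TSS. H3K4me3 peaks of the family were centred a median of 380 bp downstream, against 205 bp over all genes.

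The 4 genes without H3K4me3 were Rpl3l, Rpl10l, Rpl39l and Rpl32l, and none of them had a MOF, Rfx2 or H3K27ac peak either. Rpl3l is a paralog of Rpl3 known from striated muscle, and Rpl10l and Rpl39l are paralogs known from the testis. Their widely used relatives were marked. Rpl3 had an H3K4me3 peak of 2229 bp with a fold enrichment of 5.64, the ratio of peak signal to local background given by the authors' peak caller. Rpl10 had a peak of 1063 bp with a fold enrichment of 6.35, and Rpl39 a peak of 2226 bp with a fold enrichment of 5.58. Rps27l differed from the 4 unmarked paralogs. Its H3K4me3 peak was 1621 bp wide with a fold enrichment of 8.14, its H3K27ac fold enrichment was 8.44 and its MOF score was 653. Its relative Rps27 had an H3K4me3 peak of 1665 bp with a fold enrichment of 8.99, an H3K27ac fold enrichment of 5.11 and a MOF score of 750. Rps4l is not protein-coding in this annotation, and its relative Rps4x on the X chromosome had H3K4me3 (fold enrichment 8.11) and H3K27ac (9.09) without MOF. The unmarked Rpl32l started at a C in a run of 10 pyrimidines, while the marked Rpl10 had a G at its TSS.

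H3K27ac was missing from 2 genes with H3K4me3. Rpl23a, whose product lies at the exit of the nascent chain, had a narrow H3K4me3 peak (1170 bp, fold enrichment 6.13) and no MOF. Rpl38, the gene mutated in the Tail short mouse, had H3K4me3 (1638 bp, fold enrichment 7.88) and the lowest MOF score of the family, 333. The scale of the MOF score is not stated, so scores are compared only within the MOF list.

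**Figure D1:**
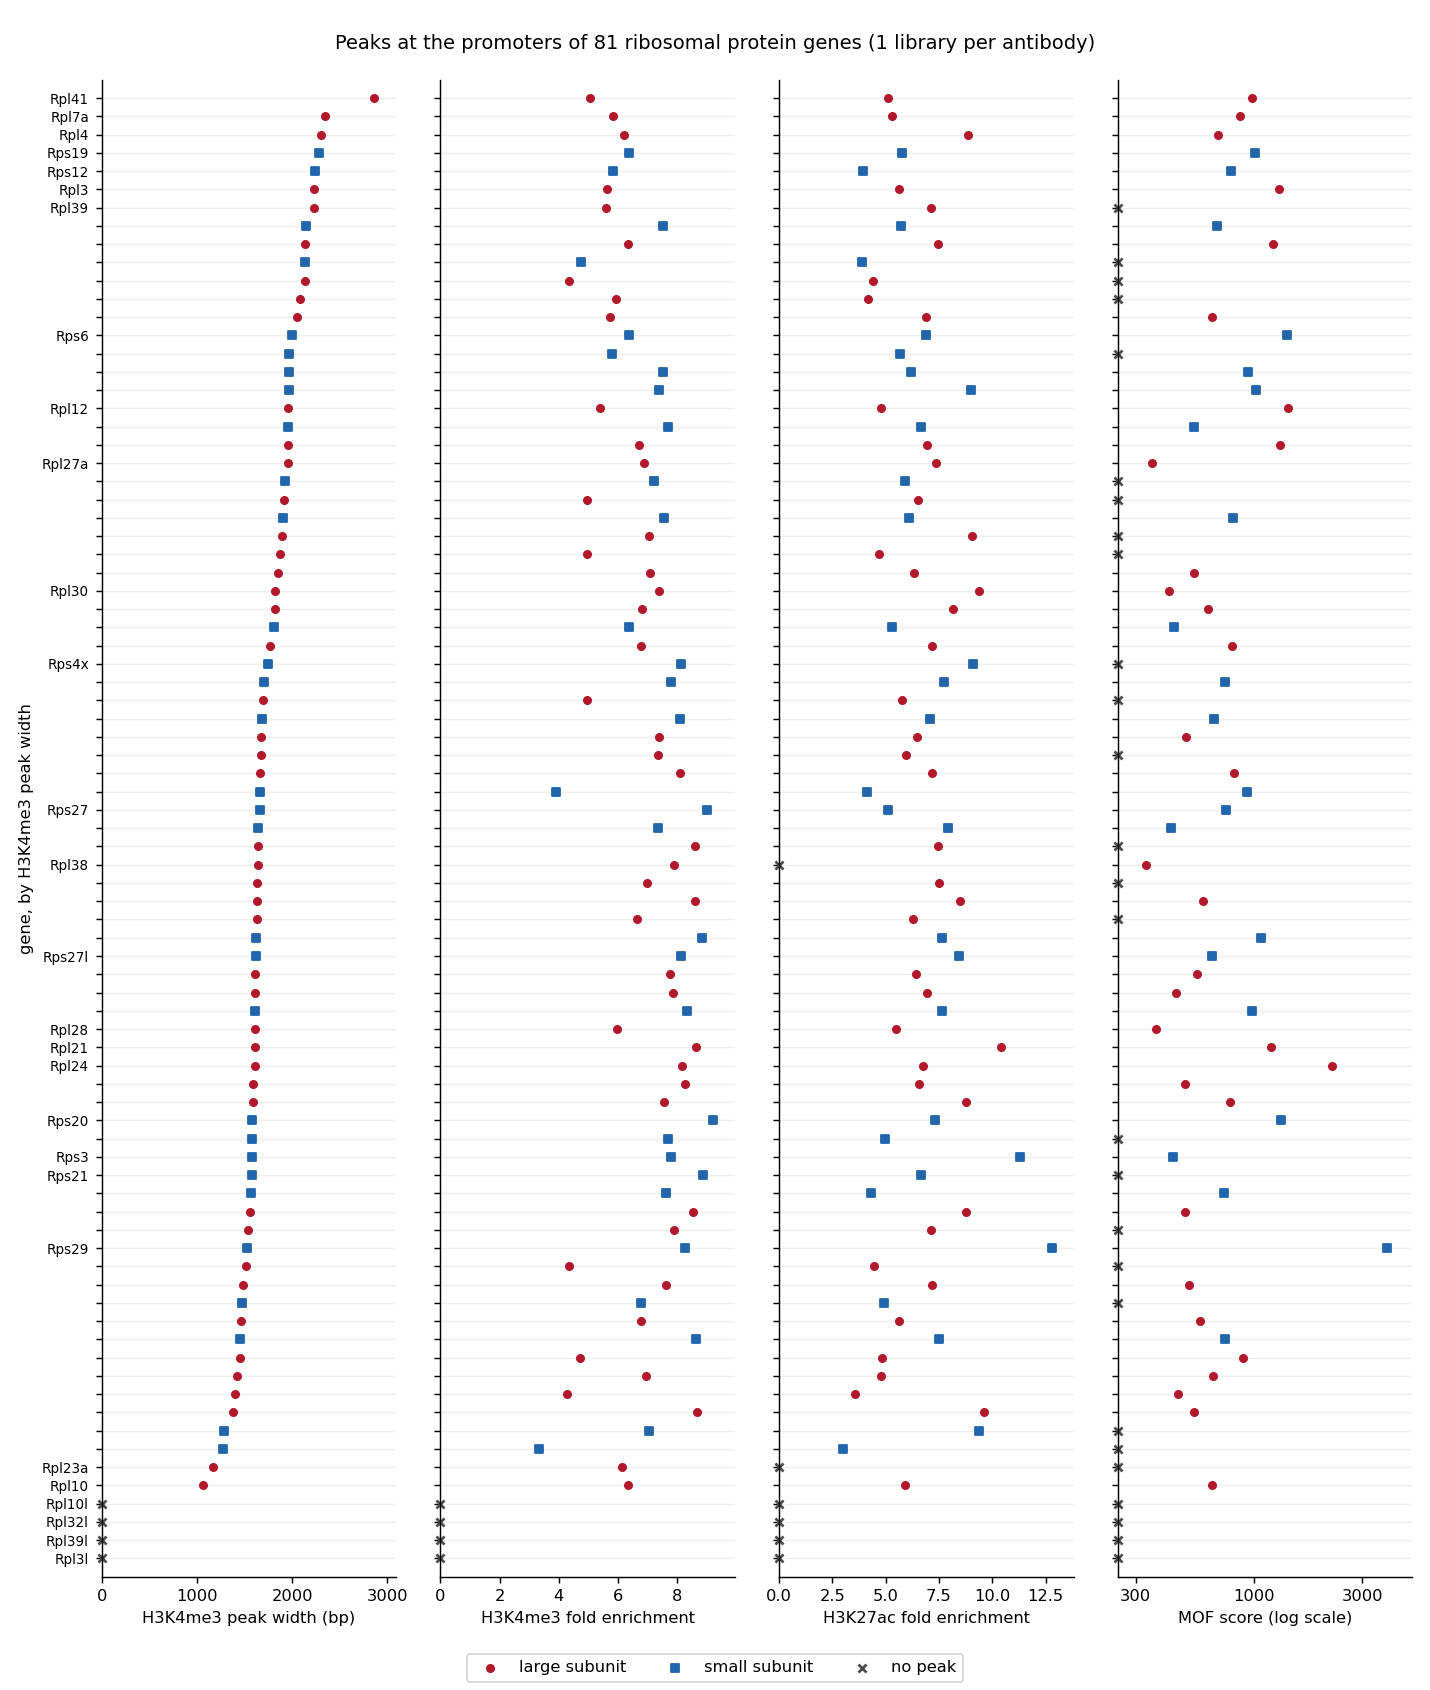
Values at each of the 81 ribosomal protein genes, 1 row per gene, ordered by H3K4me3 peak width, with names for some: H3K4me3 peak width in bp, H3K4me3 and H3K27ac fold enrichment on linear axes, and MOF score on a log axis. Circles are large subunit genes, squares small subunit genes and crosses genes without a peak. The 4 unmarked paralogs stand at the bottom, Rpl41 (2865 bp) at the top, and Rps29 (score 3863) far to the right in the MOF panel.

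MOF was found at 54 of the 81 promoters (66.7%, 55.3 to 76.8%), against 26.6% of all protein-coding genes. Each of the 54 also carried H3K4me3, so the share among genes with H3K4me3 was 54 of 77 (70.1%, 58.6 to 80%), against 42.4% of the 12735 genes with H3K4me3. With both marks it was 53 of 75 (70.7%, 59 to 80.6%), against 49%. The mitochondrial ribosomal protein genes, which serve the separate ribosome of the mitochondrion, had nearly the same share among genes with H3K4me3, 56 of 78 (71.8%, 60.5 to 81.4%). Genes of the proteasome, the protease that degrades ubiquitin-tagged proteins, gave 23 of 37 (62.2%, 44.8 to 77.5%). The intervals of the 3 families overlapped, and each lay above the 42.4% of all genes with H3K4me3. With both marks the proteasome genes gave 23 of 36 (63.9%, 46.2 to 79.2%), an interval that held the 49% of all such genes. With the centre of the MOF peak required in the promoter the share of the 81 genes was 29.6% (all genes 16.4%), and with the 50% of MOF peaks that scored highest it was 44.4% (all genes 16.4%).

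**Figure D2:**
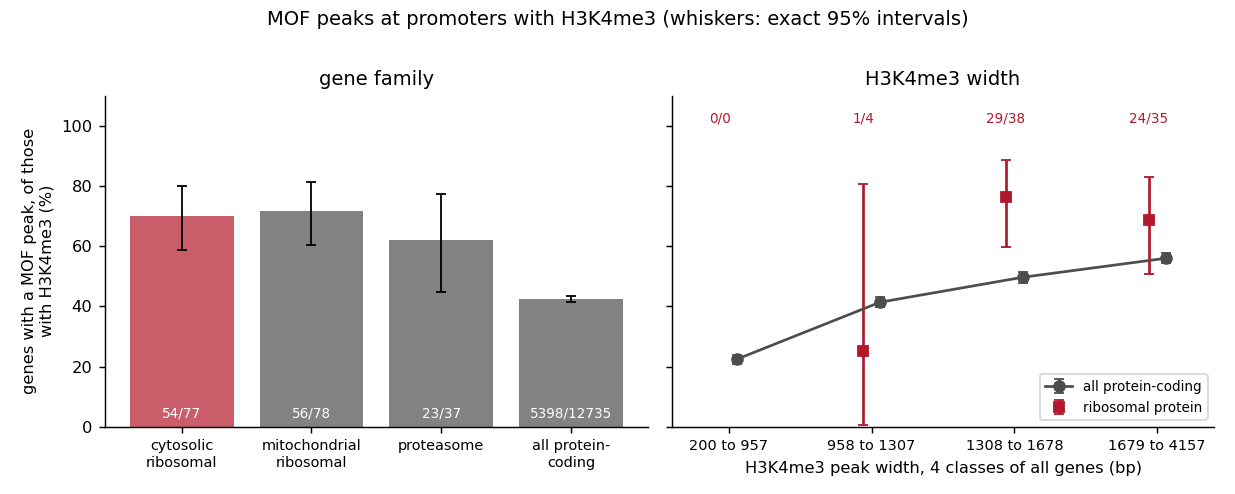
Share of genes with a MOF peak among genes with H3K4me3 at the promoter, in percent, with exact 95% confidence intervals as whiskers. Left, bars by gene family with counts inside: the cytosolic (70.1%) and mitochondrial (71.8%) ribosomal protein genes stood above all protein-coding genes (42.4%). Right, by 4 equal classes of H3K4me3 peak width in bp, with ribosomal protein genes as squares (counts above) and all genes as circles: no ribosomal protein gene fell in the narrowest class.

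The 54 genes lay under 54 different MOF peaks. MOF was at all 3 genes of the stalk that recruits elongation factors, where Rplp0 scored 659, Rplp1 779 and Rplp2 579. With MOF at 70.1% of the family's genes with H3K4me3, a count of 3 of 3 does not set the stalk apart. Rpl5 (score 594) and Rpl11 (498) were both bound. Their products bind the ribosome's smallest rRNA and, when free, the p53 regulator Mdm2. MOF was also at Rps19 (1014), Rps14 (1023) and Rps27a (742), the last made as a fusion with ubiquitin. The shares of the subunits had overlapping intervals. MOF was at 32 of 46 large subunit genes with H3K4me3 (69.6%, 54.2 to 82.3%) and at 22 of 31 small subunit genes (71%, 52 to 85.8%).

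Of the 27 genes without MOF, 4 were the unmarked paralogs. Another 14 belonged to the large subunit, among them Rpl7, Rpl10a, Rpl13, Rpl13a, Rpl14, Rpl17, Rpl18, Rpl19, Rpl23a, Rpl32, Rpl35, Rpl36a and Rpl39. The 9 of the small subunit included Rps4x, Rps15, Rps15a, Rps18, Rps21, Rps24 and Rps28. These 23 genes with H3K4me3 had no MOF peak close by. Their nearest MOF peak was a median of 12684 bp from the TSS (range 2643 to 235096 bp), and for 15 of them it was more than 10000 bp away. The smallest distances were 2643 bp at Rpl35 and 2687 bp at Rpl18. The share with MOF was 66.7% as well when the window reached 500 bp, 1 kb or 2.5 kb to both sides.

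Scores among the 54 bound genes ran from 333 to 3863, with a median of 715 (95% interval 628 to 806). The 5579 protein-coding genes with MOF had a median of 653, and 31 of the 54 lay above it. Rps29, a small zinc-binding protein of the small subunit, had the highest score of the family, 3863, at chr12:69158675-69159661. This was the score of rank 4 among all 5579 genes, and the H3K27ac fold enrichment of Rps29, 12.8, was also the highest of the family. The MOF peak of Rps29 also covered Rn7s1, a gene for the RNA of the signal recognition particle that starts 109 bp from the TSS of Rps29 on the other strand (chr12:69159295-69159593). Such RNA genes have near-identical copies elsewhere in the genome, and the part of shared reads in this score was not tested.

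Rpl24, which forms a bridge between the subunits, came next with a score of 2199 (chr16:55966185-55968281), rank 33 among all genes. Rpl12 at the base of the stalk scored 1409 (chr2:32961509-32962628), Rps6, the target of S6 kinases, 1403 (chr4:86856650-86858290), and Rps20 1311 (chr4:3834864-3835847). At the low end, above Rpl38 (333, chr11:114668396-114669230), were Rpl27a (354, chr7:109518707-109520017), Rpl28 (369, chr7:4792951-4793341) and Rpl30 (423, chr15:34442663-34443897). Apart from Rps29 and Rpl24, no score exceeded 1409, and with 1 library the order of neighbouring scores has no error to be judged by.

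The MOF score and the height of the marks were nearly uncorrelated. Across the 54 genes, which share the 3 libraries, the rank correlation of the MOF score with the H3K4me3 fold enrichment was −0.05 and with the H3K27ac fold enrichment −0.06 (53 genes). Across all protein-coding genes the same correlations were −0.03 and 0.10. With the H3K4me3 peak width the MOF score had a rank correlation of 0.27 over the 54 genes and 0.10 over all genes. The 2 marks went together more closely: their fold enrichments had a rank correlation of 0.62 over 75 ribosomal protein genes and 0.44 over all 10310 genes with both.

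Ribosomal protein genes with and without MOF were compared for their marks. The median H3K4me3 fold enrichment was 7.44 with MOF (6.80 to 7.74, 54 genes) and 6.64 without (4.95 to 7.21, 23 genes). The median H3K27ac fold enrichment was 6.9 with MOF (6.21 to 7.34) and 5.92 without (4.69 to 7.15). Both pairs of intervals overlapped. Over all genes the medians with and without MOF were 8.11 and 8.1 for H3K4me3, and 7.24 and 6.39 for H3K27ac. H3K4me3 peaks had nearly the same median width with (1666 bp) and without MOF (1674 bp), whereas over all genes the medians were 1454 and 1184 bp. Among the 23 without MOF were well-marked genes such as Rps21 (H3K4me3 8.86) and Rps24 (H3K27ac 9.37).

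H3K4me3 peaks at ribosomal protein genes were wide and of moderate height. The median width was 1666 bp (1621 to 1806 bp) at 77 genes, against 1307 bp at all 12735 genes with H3K4me3, and 73 of the 77 lay above that median. None was under 1000 bp wide, whereas 27.7% of all genes had a narrower peak. Between 1500 and 1750 bp lay 44.2% of the family, against 14.4% of all genes with H3K4me3. The median fold enrichment was 7.08 (6.76 to 7.55), against 8.11 at all genes. Of the 77, 15 lay above the median of all genes and 0 above its 90th percentile of 11.9. Wider H3K4me3 peaks tended to be lower, with a rank correlation of width and fold enrichment of −0.35 in the family and −0.21 over all genes. The mitochondrial ribosomal protein genes showed the other pattern, with a median width of 1290 bp (1186 to 1405 bp) and a fold enrichment of 9.55 (8.8 to 10.5). The proteasome genes had medians of 1383 bp and 9.48. The intervals of the cytosolic ribosomal protein genes overlapped neither family in width or in fold enrichment.

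**Figure D3:**
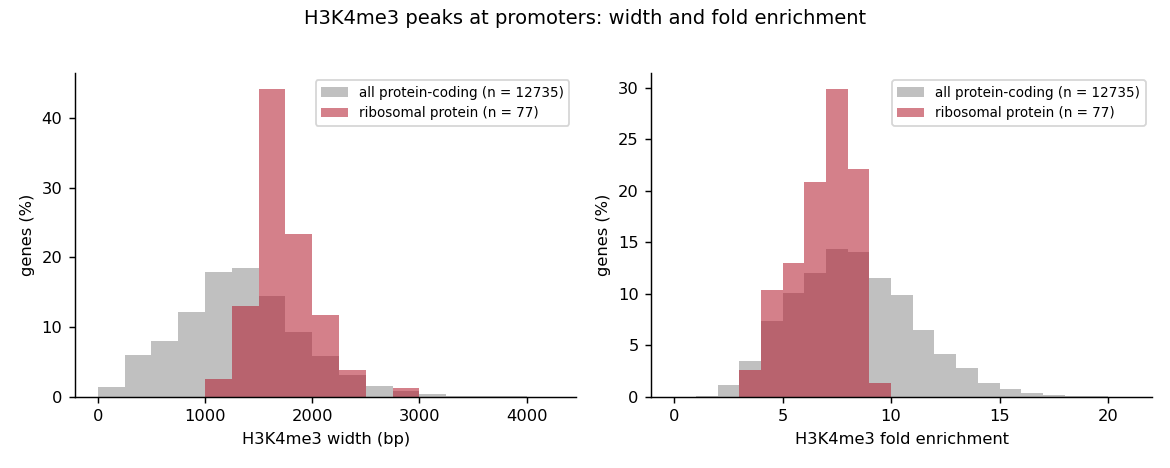
Distribution of H3K4me3 peak width in bp (left) and fold enrichment (right) as percent of genes per bin, for 77 ribosomal protein genes and all 12735 protein-coding genes with H3K4me3. The ribosomal protein genes lie between 1000 and 3000 bp and have no fold enrichment above 10, while all genes spread over the whole axes.

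The widest H3K4me3 peak was at Rpl41, which encodes a very short basic peptide, with 2865 bp at chr10:128546527-128549391. It was followed by Rpl7a with 2348 bp (chr2:26909527-26911874), Rpl4 with 2302 bp (chr9:64172161-64174462), Rps19 with 2283 bp (chr7:24883969-24886251) and Rps12 with 2241 bp (chr10:23786282-23788522). The narrowest were the peaks of Rpl10 (1063 bp, chrX:74269833-74270895) and Rpl23a (1170 bp, chr11:78182620-78183789). The highest fold enrichments were 9.21 at Rps20, 8.99 at Rps27 and 8.86 at Rps21, all of the small subunit. Rpl41, Rpl4 and Rpl7a share their H3K4me3 peak with another protein-coding gene, Zc3h10, Zwilch and Med22. In all, 14 ribosomal protein genes shared it with a protein-coding gene, with a median width of 1954 bp. Genes of other kinds were not counted. The other 63 had a median of 1627 bp, against 1232 bp at the 10642 protein-coding genes whose H3K4me3 peak was at no other such promoter.

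These peaks covered much of the short genes. The 77 genes had a median length of 3175 bp (2722 to 3737 bp), against 24427 bp for all genes with H3K4me3, 7691 bp for mitochondrial ribosomal protein genes and 12293 bp for proteasome genes. A median of 37.6% of the gene lay under its H3K4me3 peak (35.8 to 42%), against 3.49% for all genes. At 22 genes (28.6%) at least 50% of the gene was covered, against 2.36% of all genes, and Rpl41 (1059 bp long) and Rps27 (982 bp) were covered whole. Widths also differed among genes of like length. The 39 ribosomal protein genes between 2502 and 4404 bp long, the middle of the family's range, had a median H3K4me3 width of 1675 bp, while the 725 other genes of that length with H3K4me3 had 1254 bp. MOF was at 27 of the 39 (69.2%) and at 270 of the 725 (37.2%).

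Peaks lay mostly downstream of the TSS. Positions were measured from the first annotated TSS, while a peak could be assigned through a later one. At a gene with several TSSs such a peak can lie far downstream, and its part in the differences from all genes was not tested. For H3K4me3 the centre was a median of 380 bp downstream and was downstream at 71 of 77 genes (92.2%, 83.8 to 97.1%), against 205 bp and 73.3% over all genes. The peaks reached a median of 491 bp upstream and 1202 bp downstream, against 412 and 852 bp. The summit was at a median of 107 bp, against 125 bp. MOF peaks were centred a median of 152 bp downstream (42 of 54 genes, 77.8%, 64.4 to 88%), against 56 bp and 57% over all genes. They covered the TSS at 52 of 54 genes (96.3%), against 81.9%. The 2 exceptions were Rpl22, where MOF began 949 bp and H3K4me3 1163 bp downstream of the first annotated TSS, and Rps26, where MOF began 34 bp downstream. H3K27ac peaks were centred a median of 159 bp downstream, against 108 bp.

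**Figure D4:**
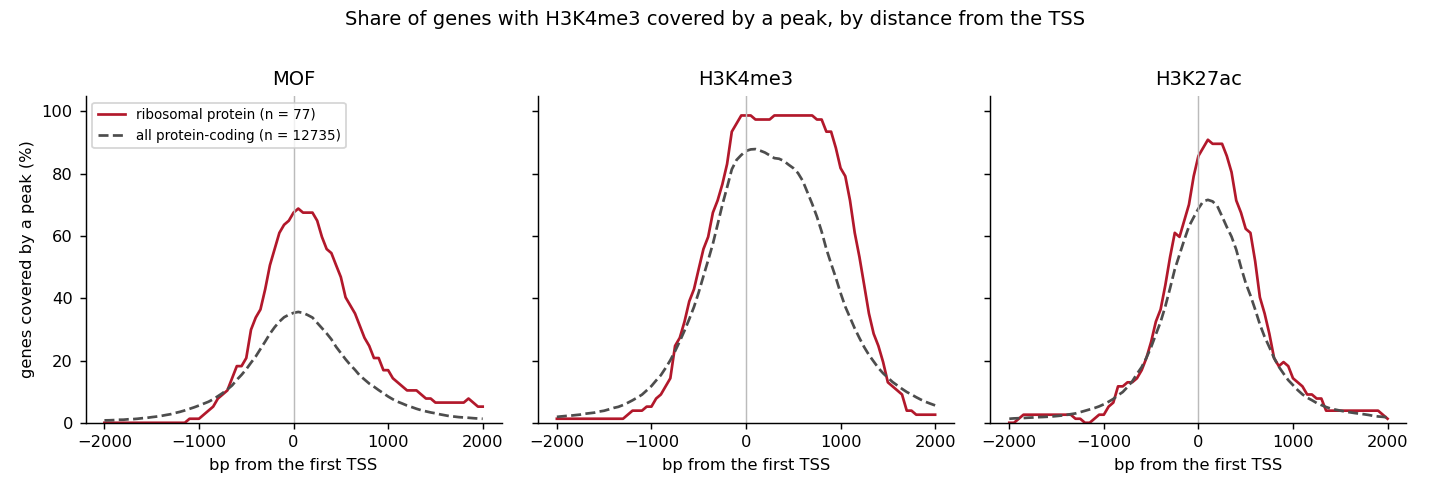
Percent of genes with a peak over each position, from 2 kb upstream to 2 kb downstream of the first TSS in steps of 50 bp, for 77 ribosomal protein genes (solid) and 12735 protein-coding genes with H3K4me3 (dashed). At 1 kb downstream H3K4me3 still covered 81.8% of the ribosomal protein genes and 41.7% of all genes, and MOF covered 68.8% and 35.6% at its highest point, 50 bp downstream.

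H3K27ac at ribosomal protein genes was close to that of all genes in height. Its median fold enrichment was 6.65 (5.95 to 7.15) against 6.78, and its median width 963 bp (832 to 1043 bp) against 901 bp. After Rps29 (12.8, chr12:69158448-69159267), the highest fold enrichments were 11.3 at Rps3 (chr7:99482729-99483858), which also encodes a DNA repair activity, and 10.4 at Rpl21 (chr5:146832816-146833700). A pair of H3K27ac peaks was found at Rpl4 and at Rplp1, and a single peak at the other 73. At 9 genes the peak at the promoter did not reach the first TSS, among them Rpl3, where it was 227 bp wide and ended 244 bp upstream. The first TSS was covered at 88% of the 75 genes (78.4 to 94.4%), an interval that held the 82.3% of all genes with H3K27ac.

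The share with MOF was examined by H3K4me3 peak width in 4 classes of equal size. Over all genes it was 22.5% in the narrowest class, then 41.4% and 49.7%, and 56% in the widest. Ribosomal protein genes had MOF at 1 of 4 in the class from 958 to 1307 bp, at 29 of 38 in the next (76.3%, 59.8 to 88.6%) and at 24 of 35 in the widest (68.6%, 50.7 to 83.1%). The interval lay above the share of all genes from 1308 to 1678 bp, and in the widest class it held that share. By fold enrichment of H3K4me3, ribosomal protein genes had MOF at 11 of 22 in the lowest class (50%, 28.2 to 71.8%), at 30 of 40 in the next (75%, 58.8 to 87.3%) and at 13 of 15 in the one after it (86.7%, 59.5 to 98.3%), and none lay in the highest. All genes were at 38.9%, 45.7% and 44.3% in these classes, and in the lowest the interval of the family held that share. The intervals of the 3 classes overlapped.

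Neighbours and position were considered next. MOF was at 1 of the 4 ribosomal protein genes on the X chromosome, Rpl10, and was absent from Rpl36a, Rpl39 and Rps4x. On autosomes it was at 53 of 73 with H3K4me3 (72.6%, 60.9 to 82.4%), and the intervals overlapped (X chromosome 0.631 to 80.6%). Over all genes with H3K4me3 the shares were 12.8% on the X chromosome and 43.4% on autosomes. A protein-coding or long non-coding RNA gene with a curated transcript started on the opposite strand within 1 kb upstream of 13 ribosomal protein genes. Of these 13, 10 had MOF (76.9%, 46.2 to 95%). Without such a neighbour the count was 44 of 64 (68.8%, 55.9 to 79.8%), while over all genes the shares were 62.1% and 38.5%. Of the 54 MOF peaks, 10 also lay at the promoter of another protein-coding gene, such as that of Rps27a with Clhc1, Rpl9 with Lias and Rps25 with Trappc4. Genes of other kinds were not counted here. SnoRNA hosts and the remaining genes differed by less than their intervals. MOF was at 20 of 29 hosts (69%, 49.2 to 84.7%) and 34 of 48 others (70.8%, 55.9 to 83%), against 56.8% and 42.2% over all genes.

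Rfx2 was not found at any of the 81 promoters (exact 95% interval 0 to 4.45%), against 1.41% of all protein-coding genes. At such a low rate a count of 0 does not set the family apart. It was 2.32% of all genes with H3K4me3 and 2.81% of those with both marks. The mitochondrial ribosomal protein genes and the proteasome genes had Rfx2 at 1 promoter each. Within 2.5 kb of a TSS, 1 ribosomal protein gene had an Rfx2 peak. This peak lay 1114 bp downstream of the Rpl41 TSS at chr10:128547675-128548054 (fold enrichment 6.64), past the end of Rpl41 and over the TSS of Zc3h10. The next nearest was 7111 bp from the TSS of Rpl24.

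Pyrimidine runs at the TSS were more frequent in the family than over all genes. A run of at least 5 pyrimidines included a curated TSS at 21 of the 61 genes with a sequence (34.4%, 22.7 to 47.7%), against 10.1% of all protein-coding genes. At the first TSS alone it was 19 of 61 (31.1%, 19.9 to 44.3%) against 8.61%, and it was 5.8% for mitochondrial ribosomal protein genes and 15.6% for proteasome genes. The longest run was 21 bases, at Rpl7a. The TSS was a C at 32.8% of the 61 genes and at 13.8% of all. As annotated starts can be off by a few bases, a run within 5 bp of the TSS was also counted, which gave 57.4% against 36.7%. Genes for which no sequence was used here include Rpl3, Rpl32, Rpl7, Rpl8, Rpl17, Rpl21, Rpl23a, Rpl29, Rpl30, Rpl36, Rplp1, Rps14, Rps20, Rps27a and Rps29. Genes with and without a run had overlapping intervals for MOF. Of genes with H3K4me3, 11 of 18 with a run at the first TSS had MOF (61.1%, 35.7 to 82.7%) and 30 of 39 without (76.9%, 60.7 to 88.9%). Over all genes with H3K4me3 the shares were 41.5% and 44.1%.

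Short motifs were then counted in the 300 bp from 250 bp upstream to 50 bp downstream of the first TSS, on both strands unless stated. No motif contains the letters of another. The ETS core CCGGAAG was present at 24 of 61 genes (39.3%, 27.1 to 52.7%), among them Rps6, Rpl11, Rpsa and Rplp2. The share was 36.2% for mitochondrial ribosomal protein genes, 18.5% for genes with H3K4me3 and 12.2% for all protein-coding genes. The YY1 core AAGATGG was at 14.8% (6.98 to 26.2%), against 6.43% of all genes and 7.06% of genes with H3K4me3, which lay inside the interval. The Sp1 box GGGCGG (57.4% against 47.8%), the NRF1 core GCATGCG (6.56% against 4.67%), the E box CACGTG (8.2% against 8.16%) and the TATA box TATAAA on the strand of the gene (9.84% against 8.92%) were within counting error of all genes. The Sp1 box was at 67.8% of genes with H3K4me3, above the share of the family but inside its interval of 44.1 to 70%. Among genes with H3K4me3, MOF was at 18 of 23 with the ETS core (78.3%, 56.3 to 92.5%) and at 23 of 34 without (67.6%, 49.5 to 82.6%). Over all genes with H3K4me3 the shares were 56.1% and 41.1%. The ratio of observed to expected CpG had a median of 0.857 (0.769 to 0.931), against 0.776 for genes with H3K4me3, which lay inside the interval, and was lowest at Rpl3l, 0.0892. The median GC content was 57% (54.3 to 60%), below the 61.7% of genes with H3K4me3 and near the 56.7% of all genes. A match of letters is a description and not a bound site.

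**Figure D5:**
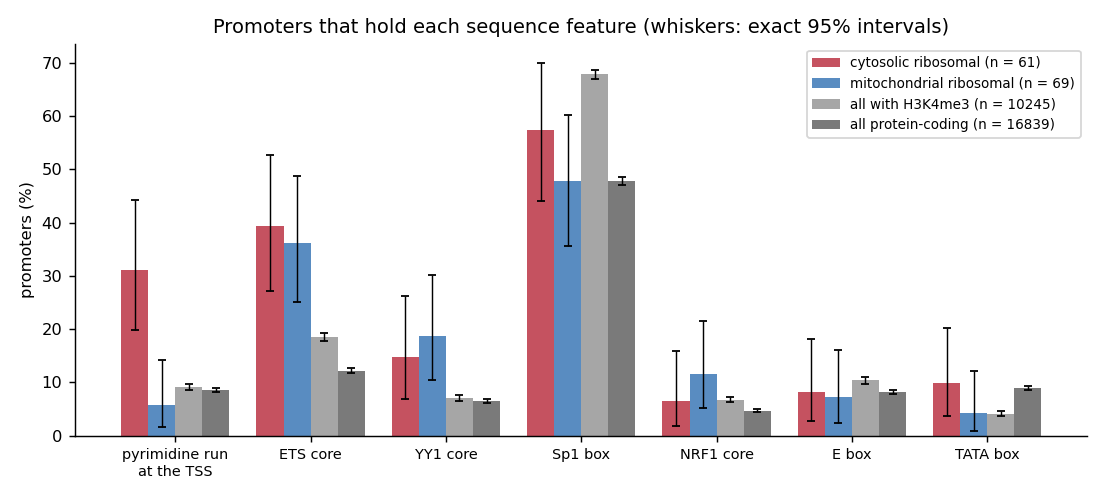
Percent of promoters that hold each sequence feature, with exact 95% confidence intervals as whiskers, for 61 cytosolic and 69 mitochondrial ribosomal protein genes, 10245 genes with H3K4me3 and all 16839 protein-coding genes with a sequence. The pyrimidine run is high in the cytosolic family (31.1%) and low in the mitochondrial family (5.8%), while the ETS core is frequent in both (39.3% and 36.2%).

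Other genes of translation were read beside the family. Of 7 ribosomal proteins with other names, all had both marks and 5 had MOF (71.4%, 29 to 96.3%). Their H3K4me3 had a median width of 1529 bp (range 1280 to 2273 bp) and a median fold enrichment of 6.22 (range 3.91 to 10.7). Both medians lay below the intervals of the family, but with 7 genes of such range no difference is shown. Fau scored 913, Rps3a1 1385, Rack1 637, Rpl36al 473 and Rpl7l1 1069. Rpl22l1 was among those without a MOF peak. Of 19 translation factors and other TOP mRNA genes, all had H3K4me3 and 15 had MOF (78.9%, 54.4 to 93.9%). Their H3K4me3 had a median width of 1572 bp (range 415 to 2789 bp) and a median fold enrichment of 6.8. No interval was computed for these medians, so they are not judged against the family's. Eef1a1, the main elongation factor that brings tRNA to the ribosome, had a width of 2403 bp, a fold enrichment of 6.23 and a MOF score of 833. Of 38 ribosome assembly genes, which work in the nucleolus, all had H3K4me3 and 21 had MOF (55.3%, 38.3 to 71.4%), with medians of 1527 bp and 8.16. RNA polymerase I genes had MOF at 7 of 11 (63.6%, 30.8 to 89.1%). The share of all genes with H3K4me3, 42.4%, lay inside the intervals of the other-name, assembly and RNA polymerase I lists and below that of the translation factors. Rfx2 was at 3 genes of these lists: Nap1l1 (fold enrichment 15.1), Ebna1bp2 (5.82) and Mphosph10 (4.36).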

How the data were processed

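Peak lists of 4 libraries of P0.5 total epidermis were used (MOF, Rfx2, H3K4me3, H3K27ac), 1 per antibody. The other 4 libraries were not used here. Reads were aligned to mm10 with Bowtie2 and peaks called per library with MACS2 by the authors, from single-end reads for MOF and from whole paired-end fragments for Cut&Run. The deposited Cut&Run lists give each peak a fold enrichment ratio, a −log10 p-value and q-value, a score and a summit. The deposited MOF list gives a score of unstated scale and blocks, and, being longer than the authors' count of MOF peaks, it may not be their final call. The H3K4me3 list belongs to the repeat library per the labels, although its name lacks the repeat mark.

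Genes and TSSs were those of curated RefSeq transcripts (GRCm38.p6). All peak ends lay within its chromosomes. A peak was assigned to a gene when it overlapped the promoter (1 kb upstream to 100 bp downstream of any TSS) by at least 1 bp, and the highest peak was used where there were more. Shares carry exact (Clopper-Pearson) and medians exact order-statistic 95% intervals, computed with Python 3.11.15 and SciPy 1.17.1. On simulated peaks, bedtools 2.31.1 gave another call at 0 of 21000 genes.

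The genes and lists were chosen with earlier results of these data known. Named are all genes lacking a mark or MOF, those with the 5 highest and 5 lowest MOF scores, the 5 widest and 3 narrowest H3K4me3 peaks and the 3 highest fold enrichments of each mark, the paralogs with their relatives, and ribosomal proteins under other names. Some genes that this rule names are counted but not reported here by name. Other genes were picked with their values in view.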

Additional observations from a re-analysis of the deposited data

How the results depend on the processing

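Of 64 alternative settings over 11 results, 55 left the value inside its 95% interval and 9 moved it outside. Requiring the centre of a peak in the promoter gave 29.6% for MOF, 16% for H3K4me3 and 37% for H3K27ac. Keeping the better-scoring 50% of MOF peaks gave 44.4%. Leaving out Rpl3l, Rpl10l, Rpl39l and Rps27l moved H3K4me3 to 98.7%, since Rpl32l stayed in. Leaving out the 4 genes without H3K4me3, an alternative chosen after seeing the data, gave 100% for H3K4me3, by construction, and 97.4% for H3K27ac. A pyrimidine run within 5 bp of the TSS was found at 57.4% (all genes 36.7%), and at least 8 pyrimidines within 50 bp, also chosen after seeing the data, at 85.2% (all genes 38.5%). With model transcripts added, MOF was at 67.9%. No paired analysis was possible because there was a single list per antibody, and no replicate could be left out. The lists hold no read numbers, so what depth limits cannot be computed from them, and a promoter without a peak may hold signal below the authors' threshold.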
